A study of Drosophila melanogaster with 17 samples.

Results

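The innate immunity genes of the fly brain were taken as a set by gene symbol: the peptidoglycan recognition proteins (PGRP), the Gram-negative binding proteins (GNBP), the thioester proteins (Tep), the attacins, cecropins and diptericins, the IM genes, the Turandot genes (Tot), the GILT genes, and Drs, Mtk, Dro, Def, Rel, Dif, dl, spz, Tl and imd. The rule used names alone and no measured value, but it and the gene lists used below were chosen with earlier results of these data known. The rule matched 59 of the 17559 genes counted, and 57 of these had at least 1 read in some library, out of 16163 genes with any read. IM10 and IM18 had no read in any library. Of the 57 members, 48 reached a mean of 1 CPM (the gene's read count scaled to a common library size) over the 17 libraries and 9 stayed below it.

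RNA was sequenced from dissected brains of adult flies aged 10 days. The control carried the pan-neuronal driver nSyb-Gal4 alone (nSyb-Gal4>+, 3 libraries). The other genotypes used the same driver to express human tyrosyl-tRNA synthetase (TyrRS), the enzyme that loads tyrosine onto its tRNA and whose mutants cause Charcot-Marie-Tooth neuropathy: TyrRS-WT from 2 transgene copies (3 libraries), the mutant TyrRS-E196K from 1 copy (4 libraries), and the same proteins with a disrupted nuclear localization signal, TyrRS-WT∆NLS from 2 copies (3 libraries) and TyrRS-E196K∆NLS from 3 copies (4 libraries). The labels write NLS where the study writes ∆NLS. The control carried no TyrRS transgene, so transgene insertion, genetic background and TyrRS expression cannot be told apart in a comparison with it, and copy number cannot be told apart from the protein in comparisons of TyrRS-E196K with the other TyrRS genotypes or of TyrRS-E196K∆NLS with any of them. Each of the 4 comparisons with control used the same 3 control libraries.

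Flies meet microbes with a pair of NF-kappaB pathways. In the Toll pathway the secreted ligand Spätzle (spz) activates the receptor Toll (Tl), and the factors Dif and Dorsal (dl) then switch on genes such as Drosomycin (Drs) and the IM peptides. In the IMD pathway the peptidoglycan receptor PGRP-LC signals through the adaptor imd to Relish (Rel), whose targets include diptericins, cecropins and attacins. The Turandot genes are secreted stress proteins that respond to JAK-STAT signalling, and in adult flies the fat body and the blood cells (hemocytes) make much of the humoral response, while glia and neurons of the brain can express parts of it.

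Libraries held between 29380481 and 56030758 reads counted on genes. Neuron markers summed to between 6731 and 9576 CPM and photoreceptor markers to between 9891 and 24266 CPM. Fat body markers summed to between 11194 and 47716 CPM, with 1 of 15 markers (Fbp2) under 1 CPM in every library. Hemocyte markers summed to between 979 and 2476 CPM and glia markers to between 3412 and 4441 CPM. Levels are given as CPM after TMM scaling, each fold change is a log2 value ± SE from edgeR's quasi-likelihood fit, and a gene was called at a Benjamini-Hochberg adjusted p under 0.05 over all 16163 genes. In whole brains, fewer cells of a type and less RNA per cell cannot be told apart.

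Most members had a higher fitted level than control in each TyrRS genotype (51 of 57 in TyrRS-WT, 48 in TyrRS-E196K, 52 in TyrRS-WT∆NLS and 43 in TyrRS-E196K∆NLS, beside 49.4 to 51.9% of all genes), and the antimicrobial peptides and Turandot genes had the largest differences. The median log2 difference of the 57 members from control was 1.36 in TyrRS-WT, 1.31 in TyrRS-E196K, 0.96 in TyrRS-WT∆NLS and 0.34 in TyrRS-E196K∆NLS, beside medians of 0.00 over all genes in each comparison. In TyrRS-WT, 24 members had every library above every control library (42.1% of members, beside 7.59% of all genes). In TyrRS-E196K there were 28 (49.1%, beside 8.77% of all genes), and in TyrRS-WT∆NLS 30 (52.6%, beside 10.0%). In TyrRS-E196K∆NLS there were 4 (7.02%, beside 7.85% of all genes). Without control library 2, 18 members of TyrRS-E196K∆NLS lay above both other control libraries (31.6%, beside 13.0% of all genes). The count in TyrRS-WT was 41 members (71.9%, beside 13.1%) without TyrRS-WT library 3. In TyrRS-E196K∆NLS it was 7 (12.3%) without library 1, beside 10.2% of all genes, and also 7 without library 3, beside 9.81%.

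**Figure D1:**
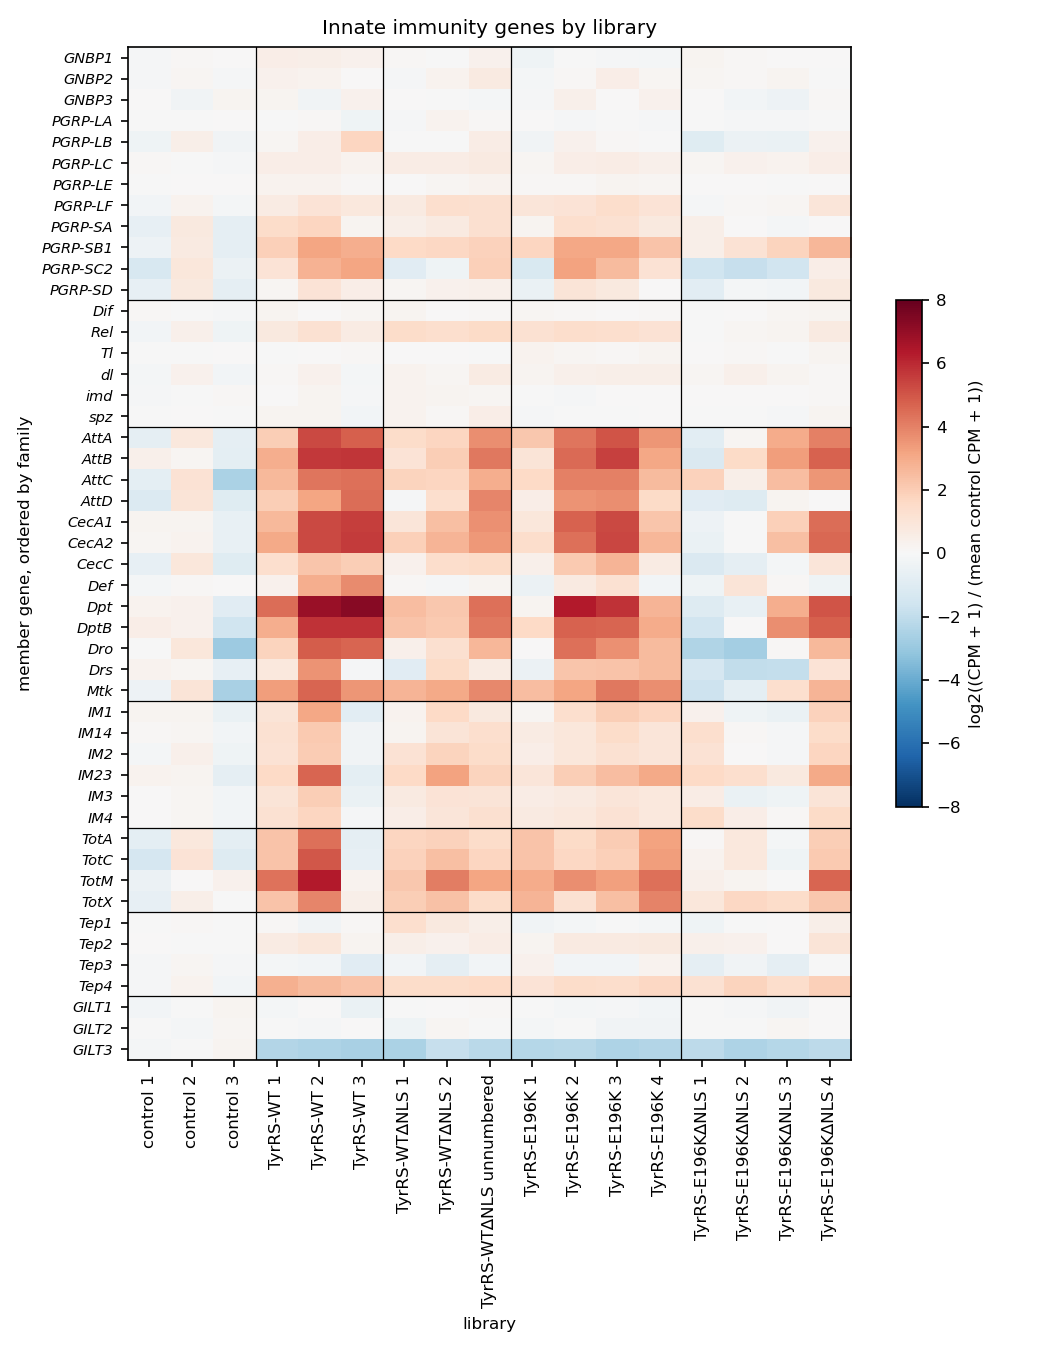
Level of each of the 48 member genes averaging 1 CPM or more (rows, grouped by family) in each of the 17 libraries (columns), as log2 of CPM + 1 over the mean control CPM + 1; red is above and blue below the control mean. The attacin, cecropin and diptericin rows are red in most TyrRS libraries and mostly pale or blue in TyrRS-E196K∆NLS libraries 1 and 2, and the GILT3 row is blue in all 14 TyrRS libraries.

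The summed level of all members was 1452, 1926 and 1336 CPM in control, 3765, 10410 and 3797 CPM in TyrRS-WT, and 2773, 3424 and 3722 CPM in TyrRS-WT∆NLS. It was 2866, 4234, 4699 and 4607 CPM in TyrRS-E196K and 2255, 1880, 1854 and 4309 CPM in TyrRS-E196K∆NLS. TyrRS-WT library 2 was the highest of all, and in TyrRS-E196K∆NLS library 4 stood above its 3 fellows, while libraries 2 and 3 overlapped the control range.

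Few members passed the test across all genes. Against control, edgeR called 5 members higher in TyrRS-WT (8.77% of members, beside 1.26% of all genes called higher) and 1 lower (beside 1.03% called lower). It called 5 higher in TyrRS-E196K (beside 3.03%) and 1 lower (beside 3.32%), and 5 higher in TyrRS-WT∆NLS (beside 2.39%) and 1 lower (beside 1.45%). In TyrRS-E196K∆NLS it called 1 higher (1.75% of members, beside 2.63%) and 1 lower (beside 2.16%). The DESeq2 Wald test called 23 members in TyrRS-WT (22 higher and 1 lower), beside 5.94% of the genes it tested. It called 20 in TyrRS-E196K (beside 13.5%), 11 in TyrRS-WT∆NLS (beside 9.0%) and 8 in TyrRS-E196K∆NLS (beside 8.82%), and these included every member that edgeR called in the same comparison.

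**Figure D2:**
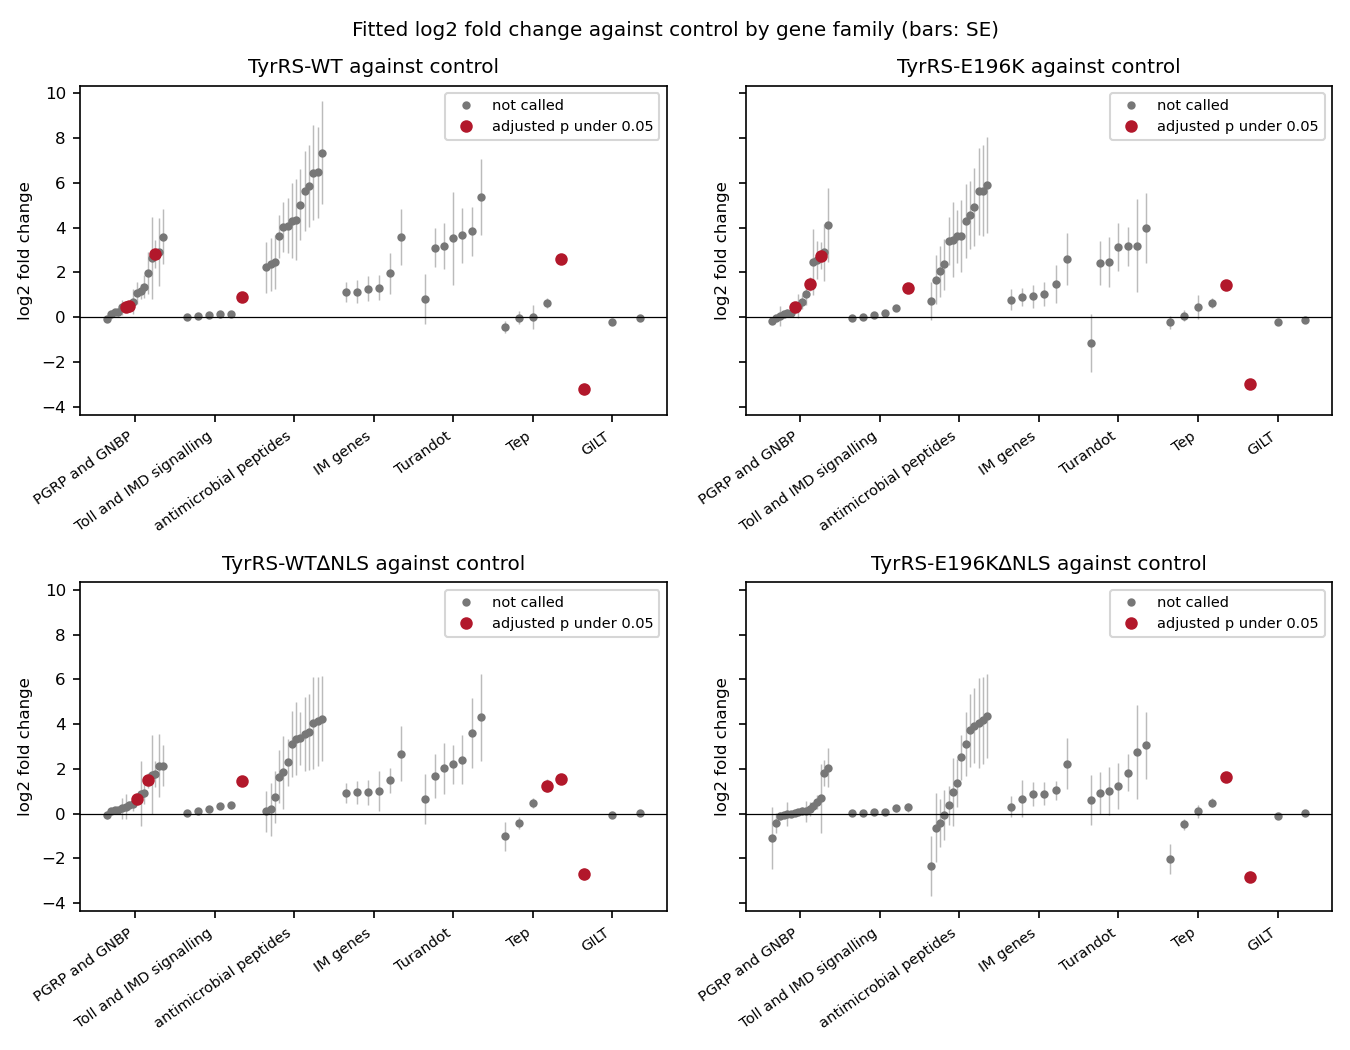
Fitted log2 fold change of each of the 57 members against control in the 4 TyrRS genotypes, by gene family, with bars for 1 SE; red points had an adjusted p under 0.05 in edgeR's quasi-likelihood test. The antimicrobial peptides and Turandot genes reach the largest values with the longest bars, and the called members are mostly PGRP, Tep and GILT genes and Rel.

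Among the signalling genes, Rel (chr3R:9044183-9047977 of BDGP6), the NF-kappaB factor of the IMD pathway, was higher than control in 3 of the 4 TyrRS genotypes. Rel was at 65.7, 105 and 62.1 CPM in control, 135, 182 and 121 CPM in TyrRS-WT, and 215, 196.1 and 229.9 CPM in TyrRS-WT∆NLS. It was at 185, 209, 201 and 175 CPM in TyrRS-E196K and at 74.4, 86.9, 91.5 and 128 CPM in TyrRS-E196K∆NLS. All libraries of TyrRS-E196K and of both wild-type genotypes lay above all control libraries, whereas TyrRS-E196K∆NLS overlapped control. Against control the log2 fold change was 1.46 ± 0.22 in TyrRS-WT∆NLS (adjusted p = 0.00198), 1.31 ± 0.21 in TyrRS-E196K (adjusted p = 0.00239) and 0.91 ± 0.22 in TyrRS-WT (adjusted p = 0.0478). In TyrRS-E196K∆NLS it was 0.29 ± 0.21 (adjusted p = 0.556). The first and second of these calls held in all 23 alternative analyses, but the call in TyrRS-WT held in 7 of 23, with adjusted p up to 0.278, and was lost without any 1 of control 1 or 3, TyrRS-WT 1 or 2, any TyrRS-WT∆NLS library, any TyrRS-E196K library, or TyrRS-E196K∆NLS 2 or 3.

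Direct comparison placed Rel higher in TyrRS-E196K than in TyrRS-E196K∆NLS, by 1.01 ± 0.19 on the log2 scale (adjusted p = 0.00525), with no overlap between the 4 and 4 libraries. Between TyrRS-WT and TyrRS-WT∆NLS the difference ran the other way, at -0.55 ± 0.22 (adjusted p = 0.432). The interaction, which is the first difference minus the second, was 1.56 ± 0.29 (adjusted p = 0.0125). Rel was also lower in TyrRS-E196K∆NLS than in TyrRS-WT∆NLS, at -1.17 ± 0.20 (adjusted p = 0.0106, up to 0.0688, and lost without the unnumbered TyrRS-WT∆NLS library and with replicate number as a block), and did not pass the test between TyrRS-E196K and TyrRS-WT (0.40 ± 0.21, adjusted p = 0.517). Of all 16163 genes, 5.6% were called between TyrRS-E196K and TyrRS-E196K∆NLS, 1.41% between the ∆NLS genotypes and 1.53% in the interaction. In each of these, 2 members were called (3.51%): Rel with Tep5, Rel with Tep1, and Rel with Tep4.

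The other signalling members stayed within a narrow band. Dif ranged from 81.5 to 101 CPM over all libraries, Tl from 151 to 192 CPM, imd from 14.8 to 19.4 CPM, spz from 15.0 to 25.7 CPM and dl from 23.1 to 43.5 CPM. None of them was called in any of the 9 comparisons by edgeR's quasi-likelihood test. DESeq2 called Tl in TyrRS-E196K against control (beside 13.5% of the genes it tested) and no other of these genes in any comparison with control. Tl was at 156, 153 and 159.6 CPM in control and at 192, 171, 166 and 185 CPM in TyrRS-E196K, so that the groups did not overlap, with a log2 difference of 0.19 ± 0.07 (adjusted p = 0.103). The dl values of TyrRS-E196K, 32.6, 37.1, 38.0 and 38.8 CPM, overlapped control (24.3, 35.1 and 23.1 CPM) through control library 2 alone. Dif lies 3.67 kb from dl on chromosome 2L, and its largest log2 difference from control was 0.16 ± 0.08, in TyrRS-WT (adjusted p = 0.427).

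**Figure D3:**
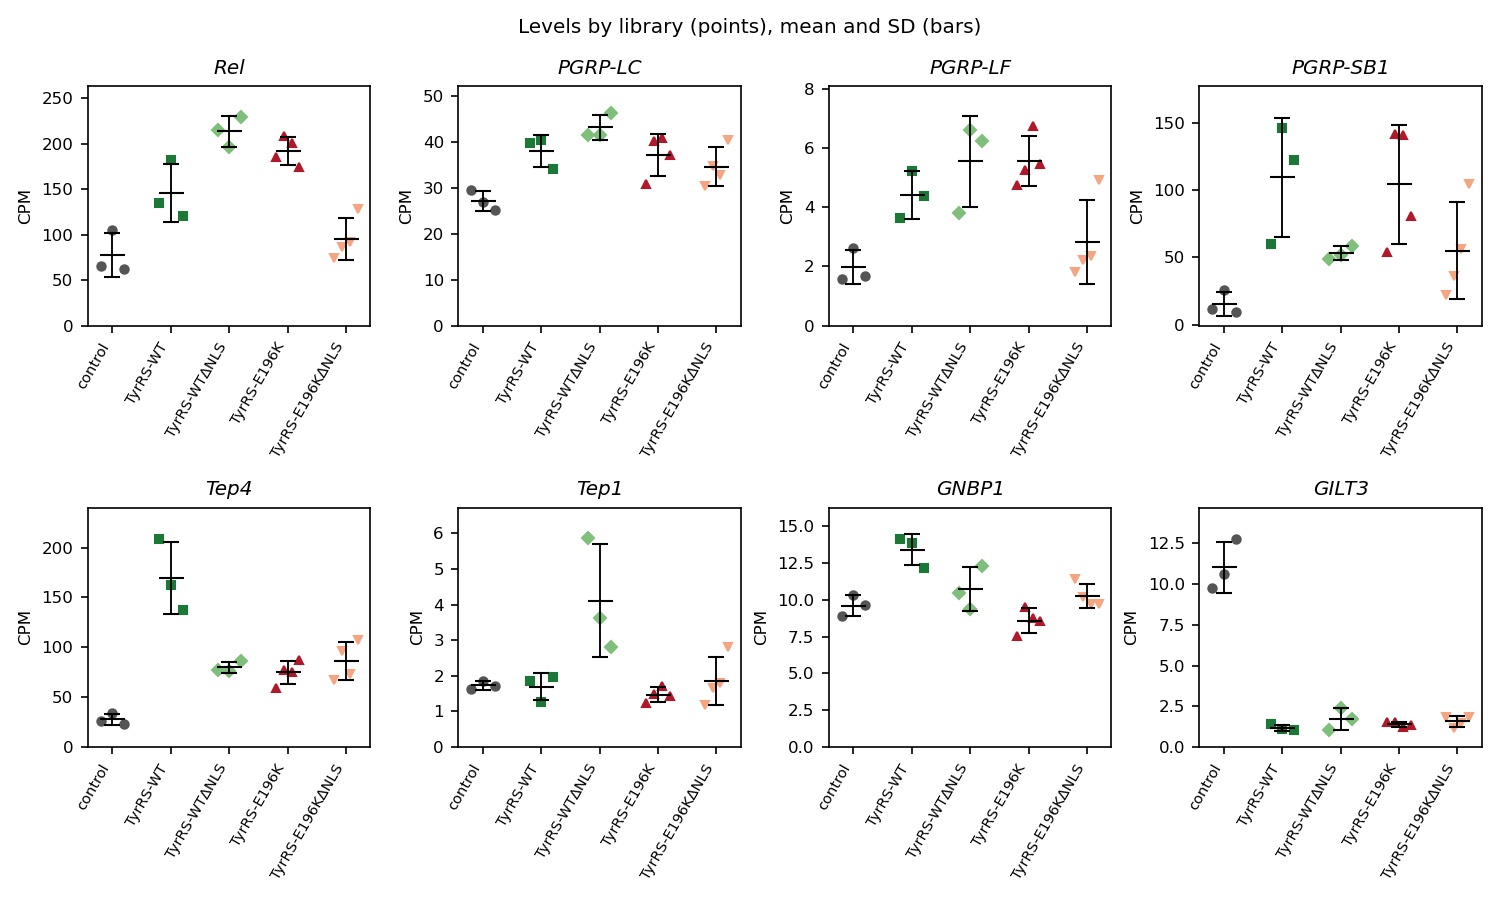
CPM of 8 called members in each library (points) by genotype, with the mean and SD (bars; n = 3, 3, 3, 4 and 4). Rel is at control-like levels in 3 of the 4 TyrRS-E196K∆NLS libraries (74.4 to 91.5 CPM), Tep4 is highest in TyrRS-WT, and GILT3 is under 2.5 CPM in every TyrRS library against 9.75 to 12.8 CPM in control.

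Among the recognition genes, edgeR called the IMD receptor PGRP-LC higher in 3 genotypes and its neighbour PGRP-LF in 2. DESeq2 also called PGRP-LC in TyrRS-E196K∆NLS and PGRP-LF in TyrRS-WT. PGRP-LC (chr3L:9338810-9348336), the membrane receptor for peptidoglycan of Gram-negative type, was at 29.5, 26.8 and 25.2 CPM in control and at 41.6, 41.5 and 46.4 CPM in TyrRS-WT∆NLS. It was at 39.7, 40.3 and 34.0 CPM in TyrRS-WT and at 30.8, 40.2, 40.8 and 37.1 CPM in TyrRS-E196K, and all TyrRS libraries, including those of TyrRS-E196K∆NLS (30.3 to 40.3 CPM), lay above all control libraries. The log2 fold change was 0.66 ± 0.12 in TyrRS-WT∆NLS (adjusted p = 0.0023), 0.45 ± 0.11 in TyrRS-E196K (adjusted p = 0.0175), 0.48 ± 0.12 in TyrRS-WT (adjusted p = 0.0329) and 0.34 ± 0.11 in TyrRS-E196K∆NLS (adjusted p = 0.0844). PGRP-LF, a related membrane protein that dampens signalling by PGRP-LC, lies 1.27 kb from it on chromosome 3L. PGRP-LF was at 1.59, 2.63 and 1.68 CPM in control, 4.75, 5.25, 6.74 and 5.46 CPM in TyrRS-E196K, and 3.79, 6.60 and 6.25 CPM in TyrRS-WT∆NLS. Its log2 fold change was 1.49 ± 0.32 in TyrRS-E196K (adjusted p = 0.0106) and 1.49 ± 0.33 in TyrRS-WT∆NLS (adjusted p = 0.0187). In TyrRS-WT it was 1.16 ± 0.33 (adjusted p = 0.0881), and in TyrRS-E196K∆NLS, where only library 4 (4.92 CPM) exceeded the control range, it was 0.52 ± 0.31 (adjusted p = 0.465). The PGRP-LC call held in all 23 alternatives in TyrRS-WT∆NLS and in 19 of 23 in TyrRS-WT, where it was lost without control 2 or 3 or TyrRS-WT 1 or 2 (adjusted p up to 0.153). It held in 19 of 23 in TyrRS-E196K, where it was lost without control 3 or TyrRS-E196K 2 or 3 (adjusted p up to 0.109). PGRP-LF was lost in TyrRS-E196K without control 3 (adjusted p = 0.0738), and in TyrRS-WT∆NLS without control 1 or 3, TyrRS-WT∆NLS 2 or the unnumbered library (adjusted p up to 0.0997).

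PGRP-LA, on the other side of PGRP-LC at 0.47 kb, was between 28.6 and 44.1 CPM in all libraries and was not called in any comparison; its log2 difference from control ran from -0.09 to 0.10.

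PGRP-SB1 (chr3L:16727299-16727989), a secreted amidase that cleaves peptidoglycan, rose in TyrRS-WT and TyrRS-E196K. It was at 11.7, 25.6 and 9.25 CPM in control, 60.05, 146 and 122 CPM in TyrRS-WT, and 53.7, 142, 141 and 80.6 CPM in TyrRS-E196K. It was at 49.0, 51.9 and 58.8 CPM in TyrRS-WT∆NLS and at 21.9, 36.5, 56.4 and 105 CPM in TyrRS-E196K∆NLS. Every library of TyrRS-WT, TyrRS-E196K and TyrRS-WT∆NLS exceeded every control library, and library 1 of TyrRS-E196K∆NLS fell within the control range. The log2 fold change was 2.82 ± 0.62 in TyrRS-WT (adjusted p = 0.0359) and 2.75 ± 0.60 in TyrRS-E196K (adjusted p = 0.0178), with the calls kept in 15 and 20 of 23 alternatives. In TyrRS-WT the call was lost without control 1 or 3, TyrRS-WT 2 or 3, TyrRS-WT∆NLS 2 or TyrRS-E196K∆NLS 3 (adjusted p up to 0.199 over all alternatives), and in TyrRS-E196K without control 1 or 3 (adjusted p up to 0.0969). It was 1.78 ± 0.60 in TyrRS-WT∆NLS (adjusted p = 0.141) and 1.82 ± 0.58 in TyrRS-E196K∆NLS (adjusted p = 0.113). PGRP-SB2 lies 10 bases from it, and reads of an unstranded library that overlap both genes cannot be assigned by strand and may be set aside as ambiguous.

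GNBP1, which works with PGRP-SA in sensing Gram-positive bacteria, was higher in TyrRS-WT than in control and than in TyrRS-E196K. It was at 8.87, 10.3 and 9.64 CPM in control, 14.1, 13.9 and 12.2 CPM in TyrRS-WT, and 7.53, 9.54, 8.75 and 8.53 CPM in TyrRS-E196K. The TyrRS-WT libraries lay above all control and all TyrRS-E196K libraries. The log2 difference between TyrRS-E196K and TyrRS-WT was -0.64 ± 0.11 (adjusted p = 0.00225) and held in all 23 alternatives. Against control it was 0.48 ± 0.12 in TyrRS-WT (adjusted p = 0.0358), which held in 17 of 23 alternatives and was lost without control 1 or 3, TyrRS-WT 1 or 2, or TyrRS-E196K∆NLS 2 (adjusted p up to 0.152). GNBP2, 0.39 kb away, ranged from 11.0 to 21.6 CPM and GNBP3, a sensor of fungal glucans, from 33.8 to 58.4 CPM, and neither was called. Between TyrRS-E196K and TyrRS-WT, edgeR called 2 members, GNBP1 and Tep4 (3.51%, beside 1.62% of all genes).

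PGRP-LE, a receptor that can sense peptidoglycan inside cells, was between 16.4 and 21.4 CPM in all libraries, and PGRP-SD, another peptidoglycan recognition protein, was between 5.97 and 25.3 CPM. PGRP-SC2, an amidase that dampens the response, spanned 0.15 to 38.6 CPM, and PGRP-LB, another such amidase, 2.30 to 19.8 CPM with its highest value in TyrRS-WT library 3. PGRP-SA, the circulating recognition protein of the Toll pathway, was at 6.68, 20.2 and 6.46 CPM in control and reached 39.7 CPM in TyrRS-WT library 2. None of these 5 was called by edgeR in any comparison, and DESeq2 called PGRP-SC2 between TyrRS-E196K and TyrRS-E196K∆NLS. Over all 16 recognition genes, DESeq2 called 4 in TyrRS-WT against control (beside 5.94% of the genes it tested). The other 4 recognition genes were under 1 CPM on average, between 0 and 0.426 CPM in single libraries.

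The 14 antimicrobial peptide genes had large fold changes and a wide spread within genotypes. All 14 were higher on average in TyrRS-WT, TyrRS-E196K and TyrRS-WT∆NLS than in control, with median log2 differences of 4.34, 3.63 and 3.24, and 10 of 14 were higher in TyrRS-E196K∆NLS, with a median of 1.94. In TyrRS-WT, 13 of the 14 had every library above every control library (beside 7.59% of all genes), in TyrRS-E196K 7 (beside 8.77%), in TyrRS-WT∆NLS 8 (beside 10.0%) and in TyrRS-E196K∆NLS none (beside 7.85%). No peptide gene was called by edgeR in any comparison with control. DESeq2 called 10, 8, 1 and 4 of 14 in TyrRS-WT, TyrRS-E196K, TyrRS-WT∆NLS and TyrRS-E196K∆NLS. The shares DESeq2 called of all genes it tested were 5.94%, 13.5%, 9.0% and 8.82%, so the 1 of 14 in TyrRS-WT∆NLS was near its share.

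Dpt, encoding the antibacterial peptide diptericin A and a standard readout of the IMD pathway, varied widely within genotypes. Dpt was at 2.12, 2.23 and 0.41 CPM in control, 55.7, 303 and 401 CPM in TyrRS-WT, and 13.5, 10.7 and 53.2 CPM in TyrRS-WT∆NLS. It was at 2.04, 213, 141 and 16.2 CPM in TyrRS-E196K and at 0.25, 0.73, 18.3 and 84.03 CPM in TyrRS-E196K∆NLS. TyrRS-WT and TyrRS-WT∆NLS did not overlap control, but in TyrRS-E196K library 1 was within the control range, and in TyrRS-E196K∆NLS library 2 was within it and library 1 below it. The mean of TyrRS-WT was 160.0 times that of control, a fitted log2 fold change of 7.35 ± 2.31 (adjusted p = 0.149), and the other genotypes gave 5.91 ± 2.15 in TyrRS-E196K (adjusted p = 0.14), 4.06 ± 2.05 in TyrRS-WT∆NLS (adjusted p = 0.357) and 4.06 ± 2.00 in TyrRS-E196K∆NLS (adjusted p = 0.353).

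AttC, an attacin, was at 131, 434 and 472 CPM in TyrRS-WT against 12.0, 48.3 and 2.84 CPM in control (4.04 ± 1.12, adjusted p = 0.0999). TyrRS-E196K (65.5 to 360 CPM) and TyrRS-WT∆NLS (70.6 to 163 CPM) also lay above control for AttC, and TyrRS-E196K∆NLS (29.1 to 253 CPM) overlapped it. Mtk, encoding the antifungal peptide metchnikowin, was at 10.1, 29.1 and 1.41 CPM in control and at 149, 368 and 171 CPM in TyrRS-WT, 79.0, 126, 266 and 191 CPM in TyrRS-E196K, and 95.7, 116 and 206 CPM in TyrRS-WT∆NLS. None of these Mtk values fell in the control range, whereas in TyrRS-E196K∆NLS (3.67, 7.37, 35.3 and 93.0 CPM) libraries 1 and 2 did. Per kilobase of exon, the mean Mtk level over all libraries, 427 CPM per kb, was the highest of the peptide genes, followed by AttC (183), Drs (175), DptB (158) and Dpt (156). In control alone the order differed, with Drs first (69.3 CPM per kb), then Mtk (50.5), AttC (23.4), Dro (15.3), DptB (8.53) and Dpt (3.20). AttA and AttB lie 1.01 kb apart on chromosome 2R and CecA1 and CecA2 0.88 kb apart on chromosome 3R, and since the members of each pair are near-identical in sequence, the split of reads between them is uncertain.

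The IM genes encode short peptides that the fat body secretes under control of the Toll pathway; current annotation names IM1, IM2, IM3 and IM23 bomanins and IM4 and IM14 daishos. All 6 were higher on average than control in every TyrRS genotype, with median log2 differences of 1.30 in TyrRS-WT, 0.99 in TyrRS-E196K, 0.98 in TyrRS-WT∆NLS and 0.89 in TyrRS-E196K∆NLS. In TyrRS-WT∆NLS all 6 had every library above every control library (beside 10.0% of all genes) and in TyrRS-E196K 5 did (beside 8.77%). In TyrRS-E196K∆NLS 1 did (beside 7.85%). In TyrRS-WT none of the 6 did (beside 7.59%), and library 3 lay within or below the control range for each. IM1 was at 27.0, 27.1 and 16.1 CPM in control, 49.3, 211 and 12.4 CPM in TyrRS-WT, 28.8, 71.2 and 40.6 CPM in TyrRS-WT∆NLS, and 25.9, 61.1, 93.6 and 80.5 CPM in TyrRS-E196K. TyrRS-E196K∆NLS gave 29.9, 18.6, 15.8 and 85.3 CPM, with library 4 apart from the others. No IM gene was called by edgeR against control. DESeq2 called 1 of 6 in TyrRS-WT (IM23, beside 5.94% of the genes it tested) and 1 in TyrRS-WT∆NLS (IM2, beside 9.0%). It called 0 in TyrRS-E196K and TyrRS-E196K∆NLS. In control, IM2 (294 CPM per kb) and IM4 (231 CPM per kb) were the members with the highest level per length, followed by TotA (193 CPM per kb).

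TotA, a secreted stress protein, was at 65.5, 204 and 64.8 CPM in control and reached 546, 2424 and 66.1 CPM in TyrRS-WT. It was at 366, 402 and 312 CPM in TyrRS-WT∆NLS, at 536, 328, 457 and 1050.0 CPM in TyrRS-E196K, and at 116, 200.2, 99.8 and 433 CPM in TyrRS-E196K∆NLS. TyrRS-WT∆NLS and TyrRS-E196K lay wholly above control, and TyrRS-WT library 3 and 3 libraries of TyrRS-E196K∆NLS lay within its range. The log2 differences were 3.18 ± 1.04 in TyrRS-WT (adjusted p = 0.171), 2.41 ± 0.98 in TyrRS-E196K (adjusted p = 0.186), 1.69 ± 0.99 in TyrRS-WT∆NLS (adjusted p = 0.437) and 0.93 ± 0.92 in TyrRS-E196K∆NLS (adjusted p = 0.7). TotM went from 3.00, 4.54 and 5.89 CPM in control to 42.5, 72.0, 52.8 and 117 CPM in TyrRS-E196K without overlap. TotC ranged from 19.0 to 1598 CPM with its highest value in TyrRS-WT library 2, TotX from 2.23 to 77.4 CPM with its highest value in TyrRS-E196K library 4, and the other 3 Turandot genes between 0 and 3.44 CPM. No Turandot gene was called by edgeR against control. DESeq2 called 5, 4, 2 and 0 of 7 in TyrRS-WT, TyrRS-E196K, TyrRS-WT∆NLS and TyrRS-E196K∆NLS. Over all the genes it tested, DESeq2 called 5.94%, 13.5%, 9.0% and 8.82% in the same order.

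The effectors did not vary as 1 block within genotypes. TyrRS-WT library 3 had the highest Dpt (401 CPM), CecA1 (72.3 CPM), AttC (472 CPM) and Def (30.8 CPM) levels of all 17 libraries, yet its IM1 (12.4 CPM) and TotA (66.1 CPM) levels were the lowest and 1 of the lowest, and its Drs level (24.7 CPM) was inside the control range (16.8 to 33.5 CPM). TyrRS-WT library 2 was high for both groups, with Drs at 340.1 CPM and IM1 at 211 CPM. Over the 17 libraries, 7 relations between genes were then computed on deviations of log2(CPM + 1) from the genotype mean, the pairs being chosen after the values were seen, with p from 100000 permutations within genotypes and adjustment over the 7 pairs.

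Dpt and CecA1 deviated together (r = 0.96, adjusted p = 0.00049, rho = 0.96, p = 0.00044, and r = 0.93 without the 2 libraries farthest from the median), as did Drs and IM1 (r = 0.94, adjusted p = 0.00028, rho = 0.95, p = 7e-05, r = 0.92 without 2). Dpt also moved with PGRP-SB1 (r = 0.89, adjusted p = 0.00028, rho = 0.89, p = 6e-05, r = 0.83 without 2). Dpt and TotA showed no such relation (r = -0.01, adjusted p = 0.97, rho = -0.13, p = 0.65, r = -0.19 without 2). IM1 and TotA gave r = 0.81 (adjusted p = 0.026, rho = 0.58, p = 0.053), which fell to r = 0.51 without 2 libraries and so rested in part on them. Rel moved with PGRP-SB1 (r = 0.80, adjusted p = 0.0053, rho = 0.76, p = 0.0047, r = 0.66 without 2). The genes of a pair share their library, its depth and its dissection.

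**Figure D4:**
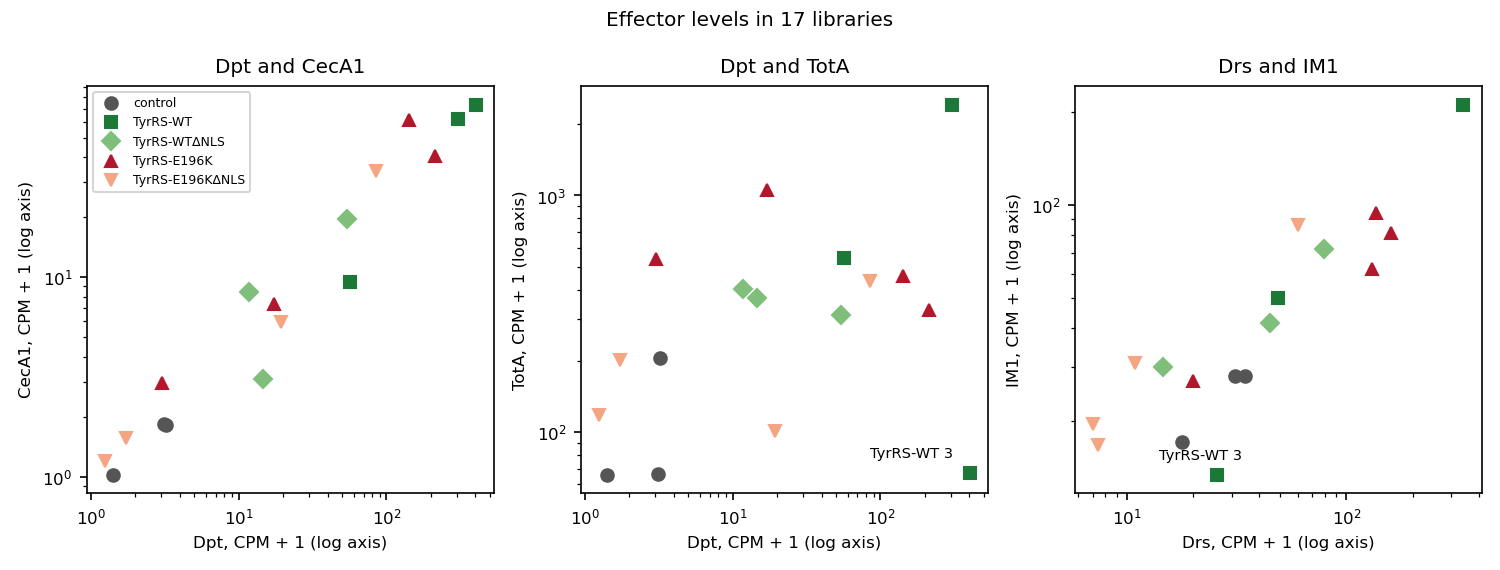
Levels of 3 pairs of effectors in the 17 libraries, as CPM + 1 on log axes, with 1 point per library and symbols for the genotypes. Dpt and CecA1 rise together and so do Drs and IM1, whereas TyrRS-WT library 3 joins the highest Dpt level (401 CPM) with 1 of the lowest TotA levels (66.1 CPM).

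The thioester protein Tep4 (chr2L:19548507-19556451) rose in all 4 TyrRS genotypes. Thioester proteins are secreted relatives of complement factors that can bind to microbes. Tep4 was at 25.7, 33.9 and 23.4 CPM in control, 209, 163 and 137 CPM in TyrRS-WT, and 76.9, 76.7 and 86.2 CPM in TyrRS-WT∆NLS. It was at 59.5, 76.9, 75.6 and 87.7 CPM in TyrRS-E196K and at 66.9, 96.3, 73.6 and 107 CPM in TyrRS-E196K∆NLS. No TyrRS library overlapped control, and the TyrRS-WT libraries lay above those of every other genotype. The 3 genotypes beside TyrRS-WT differed from control by 1.44 ± 0.20 (TyrRS-E196K, adjusted p = 0.000584), 1.53 ± 0.21 (TyrRS-WT∆NLS, adjusted p = 0.000691) and 1.64 ± 0.20 (TyrRS-E196K∆NLS, adjusted p = 0.000137), and overlapped each other. TyrRS-E196K was lower than TyrRS-WT by a log2 difference of -1.18 ± 0.19 (adjusted p = 0.00353), and TyrRS-WT was higher than TyrRS-WT∆NLS by 1.09 ± 0.20 (adjusted p = 0.015). The interaction of mutation and localization signal was -1.29 ± 0.27 (adjusted p = 0.0249). It held in 18 of 23 alternatives and was lost without TyrRS-WT 1, TyrRS-WT∆NLS 1 or 2, TyrRS-E196K 3 or TyrRS-E196K∆NLS 2 (adjusted p up to 0.0764), and the call between TyrRS-WT and TyrRS-WT∆NLS was lost without TyrRS-WT 1 or TyrRS-WT∆NLS 1 or 2 (adjusted p up to 0.0825).

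Tep1, another thioester gene, was raised in TyrRS-WT∆NLS. It was at 5.88, 3.62 and 2.81 CPM there against 1.62, 1.86 and 1.71 CPM in control and 1.86, 1.26 and 1.96 CPM in TyrRS-WT, with no overlap. The log2 differences were 1.24 ± 0.29 from control (adjusted p = 0.0207, lost without control 1 or 3 or TyrRS-WT∆NLS 1, up to 0.133), and TyrRS-WT was lower than TyrRS-WT∆NLS by -1.28 ± 0.29 (adjusted p = 0.0337), a call that held in 16 of 23 alternatives and was lost without any TyrRS-WT library or TyrRS-WT∆NLS 1 or 2 (adjusted p up to 0.266). TyrRS-E196K∆NLS was lower than TyrRS-WT∆NLS by -1.14 ± 0.26 (adjusted p = 0.0365), which held in 15 of 23 and was lost without control 3, TyrRS-WT∆NLS 1 or 2, or TyrRS-E196K∆NLS 1, 2 or 3 (adjusted p up to 0.249). Between TyrRS-WT and TyrRS-WT∆NLS the 2 members called were Tep4 and Tep1 (3.51%, beside 1.2% of all genes). Tep2 was between 151 and 314 CPM in all libraries and its 4 TyrRS-E196K libraries (177, 251, 252 and 271 CPM) exceeded control (160.4, 152 and 151 CPM), but it was not called by edgeR (0.62 ± 0.22, adjusted p = 0.118). Tep3, 1.2 kb from Tep2 on chromosome 2L, was between 4.22 and 11.5 CPM. Tep5, 2.46 kb from Tep4, is named Tep5Psi in current annotation, the name of a pseudogene. Tep5 was called higher in TyrRS-E196K than in TyrRS-E196K∆NLS (2.47 ± 0.60, adjusted p = 0.0175) on 5 to 8 reads per library against 0 to 2 reads. The call was lost without TyrRS-E196K 2 or TyrRS-E196K∆NLS 2 (adjusted p up to 0.0627).

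GILT3 (chr3R:23677358-23678421) fell in every TyrRS genotype. GILT genes encode relatives of a lysosomal thiol reductase that unfolds proteins during antigen processing in mammals. GILT3 was at 9.75, 10.6 and 12.8 CPM in control, and the 14 TyrRS libraries lay between 1.03 and 2.40 CPM. The log2 difference was -2.97 ± 0.23 in TyrRS-E196K (adjusted p = 2.27e-07), -2.69 ± 0.26 in TyrRS-WT∆NLS (adjusted p = 3.48e-06) and -2.81 ± 0.23 in TyrRS-E196K∆NLS (adjusted p = 2.53e-07). Its neighbour GILT2, 0.47 kb away on chromosome 3R, stayed between 22.9 and 33.0 CPM and GILT1 between 38.4 and 65.2 CPM, and neither was called in any comparison. No pair of TyrRS genotypes differed in GILT3 beyond the threshold; the largest difference, between TyrRS-WT and TyrRS-WT∆NLS, was -0.53 ± 0.25 (adjusted p = 0.527).

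Among 25 further Toll pathway genes, edgeR called 4 higher and 1 lower in TyrRS-WT (beside 1.26% and 1.03% of all genes), 4 higher in TyrRS-E196K (beside 3.03%), 4 higher in TyrRS-WT∆NLS (beside 2.39%) and 2 higher in TyrRS-E196K∆NLS (beside 2.63%). psh, the protease Persephone that starts Toll signalling when it meets microbial proteases, was higher in all 4 genotypes, by 0.44 ± 0.09 in TyrRS-WT (adjusted p = 0.00841), 0.35 ± 0.08 in TyrRS-E196K (adjusted p = 0.0133), 0.50 ± 0.09 in TyrRS-WT∆NLS (adjusted p = 0.00195) and 0.53 ± 0.08 in TyrRS-E196K∆NLS (adjusted p = 0.000399). Its levels were 23.4 to 26.1 CPM in control and 28.6 to 37.7 CPM in the TyrRS libraries. Hayan, a protease of the same cascade, rose by 0.87 ± 0.19 in TyrRS-WT (adjusted p = 0.0182), 0.79 ± 0.18 in TyrRS-E196K (adjusted p = 0.0129) and 0.89 ± 0.19 in TyrRS-WT∆NLS (adjusted p = 0.012), and so did nec, a serpin that restrains the pathway, by 0.54 ± 0.12, 0.47 ± 0.11 and 0.50 ± 0.12 (adjusted p = 0.0202, 0.0178 and 0.0218). The psh calls held in all 23 alternatives except in TyrRS-E196K, where 21 kept it and it was lost without control 2 (adjusted p up to 0.0746). The Hayan calls held in 18, 22 and 20 of 23 alternatives in TyrRS-WT, TyrRS-E196K and TyrRS-WT∆NLS, being lost without control 3 in each, without control 1 in both wild-type genotypes, and without TyrRS-WT 2 or 3 or TyrRS-WT∆NLS 1 in their own comparison (adjusted p up to 0.112). The nec calls held in 19, 21 and 17 of 23, being lost without control 1 or 3 in each, without TyrRS-WT 2 in TyrRS-WT, and without any TyrRS-WT∆NLS library or with replicate number as a block in TyrRS-WT∆NLS (adjusted p up to 0.127).

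Among 21 further IMD pathway genes, edgeR called none in TyrRS-WT against control. DESeq2 called 1 there, beside 5.94% of the genes it tested. Against control edgeR called 2 lower in TyrRS-E196K (beside 3.32% of all genes), 1 higher in TyrRS-WT∆NLS (beside 2.39%) and 1 lower in TyrRS-E196K∆NLS (beside 2.16%). Between TyrRS-E196K and TyrRS-E196K∆NLS it called 1 of the 21 higher (key) and 1 lower (ben, kept in 13 of 23 alternatives), beside 5.6% of all genes. key, a subunit of the kinase that activates Relish, was at 70.4, 71.0, 73.6 and 65.0 CPM in TyrRS-E196K and at 42.2, 43.1, 46.9 and 48.1 CPM in TyrRS-E196K∆NLS. In control key was at 48.5, 66.5 and 56.1 CPM, above all TyrRS-E196K∆NLS libraries and overlapping TyrRS-E196K. Neither differed from control beyond the threshold (0.30 ± 0.12 in TyrRS-E196K, adjusted p = 0.169, and -0.34 ± 0.12 in TyrRS-E196K∆NLS, adjusted p = 0.133). TyrRS-E196K and TyrRS-E196K∆NLS were apart by 0.64 ± 0.11 (adjusted p = 0.00141). key was also lower in TyrRS-E196K∆NLS than in TyrRS-WT∆NLS, by -0.68 ± 0.12 (adjusted p = 0.00493, and 0.0803 with replicate number as a block). Of 11 JAK-STAT genes, 1 was called between TyrRS-E196K and TyrRS-E196K∆NLS (beside 5.6% of all genes). Socs36E, a feedback inhibitor and target of the pathway, was higher in TyrRS-E196K (0.40 ± 0.09, adjusted p = 0.00886), with levels of 74.9 to 89.0 CPM and 58.1 to 70.5 CPM. Socs36E also exceeded control (61.3 to 65.3 CPM) in TyrRS-E196K (0.40 ± 0.09, adjusted p = 0.0147). It did so in TyrRS-WT∆NLS too (76.3 to 97.1 CPM, 0.48 ± 0.10, adjusted p = 0.0108). Each of these 2 calls against control held in 22 of 23 alternatives.

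CG1667 is named Sting in current annotation, an adaptor of antiviral defence that acts upstream of Relish in flies. CG1667 was at 204, 206, 211 and 154 CPM in TyrRS-E196K and at 11.1, 14.1, 10.9 and 12.7 CPM in TyrRS-E196K∆NLS, which was a log2 difference of 3.99 ± 0.82 (adjusted p = 0.0118) that held in all 23 alternatives. It was at 107, 225 and 225 CPM in TyrRS-WT∆NLS and at 160.4, 204 and 54.7 CPM in TyrRS-WT. In control it was at 11.2 and 12.9 CPM in libraries 1 and 3 but at 175 CPM in library 2, and no comparison with control was called (TyrRS-E196K against control 1.55 ± 0.82, adjusted p = 0.323). Control library 2 was also the highest control for Rel (105 CPM) and for pst, an antiviral gene, at 799 CPM against 353 and 386 CPM. Deviations of Rel and CG1667 within genotypes were related (r = 0.70, adjusted p = 0.025, rho = 0.60, p = 0.046, and r = 0.64 without 2 libraries). Of the 10 RNA interference and STING genes, 3 were called higher in TyrRS-E196K than in TyrRS-E196K∆NLS (beside 5.6% of all genes called in either direction), namely CG1667, pst (0.93 ± 0.24, adjusted p = 0.0407, kept in 13 of 23 alternatives) and AGO2, the effector of antiviral RNA interference (0.50 ± 0.09, adjusted p = 0.00143). The gene called lower was CG30424, a nucleotide-sensing receptor now named cGlr2, at 3.44 to 5.09 CPM in TyrRS-E196K and 16.1 to 19.6 CPM in TyrRS-E196K∆NLS (-2.04 ± 0.11, adjusted p = 8.72e-10). TyrRS-E196K alone was low. CG30424 was at 11.44 to 12.43 CPM in control, 15.35 to 16.0 CPM in TyrRS-WT and 12.76 to 15.54 CPM in TyrRS-WT∆NLS. Against control, TyrRS-E196K differed by -1.485 ± 0.113 (adjusted p = 1.74e-07), a call that held in all 23 alternatives.

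**Figure D5:**
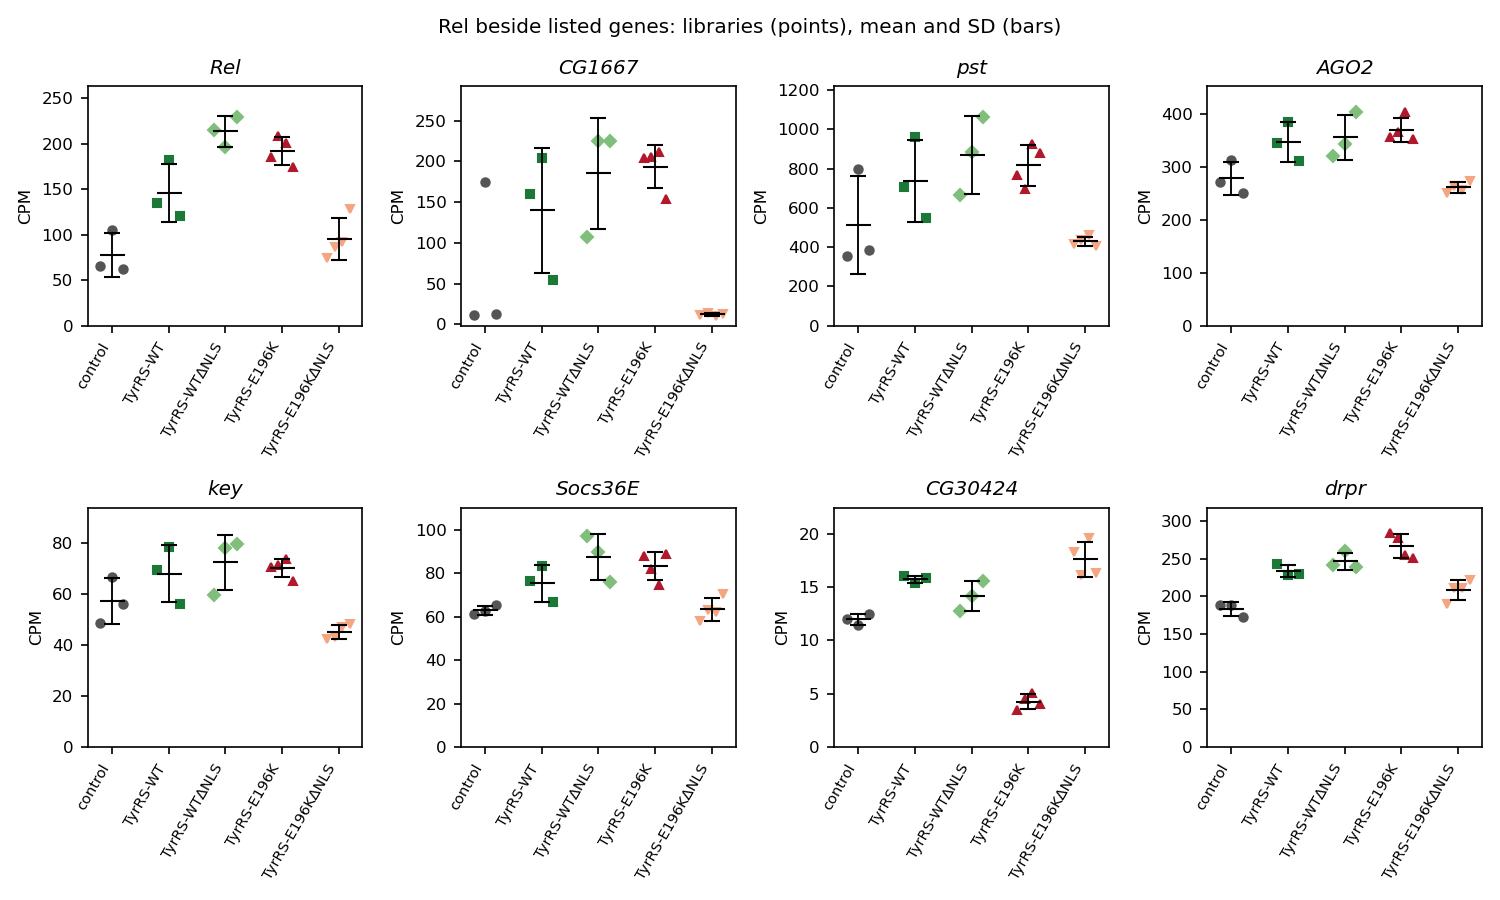
CPM of Rel and of 7 listed pathway genes in each library (points) by genotype, with the mean and SD (bars, left out for CG1667 in control, where the SD exceeds the mean). CG1667 is at 10.9 to 14.1 CPM in all 4 TyrRS-E196K∆NLS libraries and in control libraries 1 and 3, and at 175 CPM in control library 2.

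Between TyrRS-E196K and TyrRS-E196K∆NLS, edgeR called 5.6% of all genes and DESeq2 called 1461 genes. DESeq2 called 5 of 11 hemocyte markers (median log2 difference of the 11 was -0.5), 3 of 10 glia and 3 of 14 muscle markers. It called 2 of 15 fat body, 1 of 9 neuron and 1 of 15 photoreceptor markers. The marker calls that follow are by edgeR. None of the 9 neuron markers and none of the 15 photoreceptor markers was called. The 11 hemocyte markers summed to between 979 and 1781 CPM in TyrRS-E196K and between 2029 and 2476 CPM in TyrRS-E196K∆NLS, and 2 of them were called lower in TyrRS-E196K: Hml, a blood cell clotting protein (-1.76 ± 0.42, adjusted p = 0.029), and PPO1, a prophenoloxidase (-2.81 ± 0.66, adjusted p = 0.0249). Each call held in 17 of 23 alternatives. Hml was lost without TyrRS-E196K 2 or 4 or TyrRS-E196K∆NLS 2, 3 or 4 (adjusted p up to 0.0856), and PPO1 without TyrRS-E196K 2, 3 or 4 or TyrRS-E196K∆NLS 1 or 4 and with replicate number as a block (adjusted p up to 0.0665). In control the hemocyte markers summed to between 1697 and 1784 CPM, below every TyrRS-E196K∆NLS library. The 15 fat body markers summed to between 11194 and 32338 CPM in TyrRS-E196K and between 33957 and 47716 CPM in TyrRS-E196K∆NLS, again above every control library (23120 to 31764 CPM). The yolk protein genes made up most of that sum, with means in TyrRS-E196K∆NLS of 7562 CPM for Yp1, 15820.0 CPM for Yp2 and 14810.0 CPM for Yp3, and none of the 3 was called. The other fat body markers did not all follow: Hsl, a lipase, was the 1 marker of the 15 called, and it was higher in TyrRS-E196K (0.31 ± 0.07, adjusted p = 0.00773), while Apoltp overlapped (-0.19 ± 0.16, adjusted p = 0.615). Of 10 glia markers 1 was called lower, alrm (-0.53 ± 0.11, adjusted p = 0.00581), and of 14 muscle markers 2 were, among them Act79B (-0.65 ± 0.12, adjusted p = 0.00289). Rel, key and CG1667 were higher in the genotype with the lower hemocyte and fat body sums, and the part of these cells in the member levels was not tested. Photoreceptor markers were at 17192 to 22069 CPM in control and at 9891 to 12276 CPM in TyrRS-WT, and their part was not tested either.

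Among 27 phagocytosis and clotting genes, 4 were called higher in TyrRS-WT (beside 1.26% of all genes), 5 in TyrRS-E196K (beside 3.03%), 3 in TyrRS-WT∆NLS (beside 2.39%) and 2 in TyrRS-E196K∆NLS (beside 2.63%). drpr, the glial engulfment receptor Draper, was at 172 to 189 CPM in control and at 250.4 to 283 CPM in TyrRS-E196K (0.54 ± 0.07, adjusted p = 0.00015), and it also rose in TyrRS-WT (0.35 ± 0.08, adjusted p = 0.0171, lost without control 3 or TyrRS-WT 1, up to 0.118) and TyrRS-WT∆NLS (0.43 ± 0.08, adjusted p = 0.00269). fon, a clotting protein of the blood, rose in all 4 genotypes by 1.13 to 1.19 on the log2 scale, with adjusted p from 0.0111 to 0.0359. In TyrRS-WT the fon call held in 15 of 23 alternatives and was lost without control 1 or 3, TyrRS-WT 2 or 3, TyrRS-WT∆NLS 2, TyrRS-E196K 2 or TyrRS-E196K∆NLS 3 (adjusted p up to 0.307). It held in 18 of 23 in TyrRS-WT∆NLS (lost without control 1 or 3 or TyrRS-WT∆NLS 1 or 2, up to 0.0927), and in 21 of 23 in TyrRS-E196K (lost without control 3, up to 0.0695) and in TyrRS-E196K∆NLS (lost without control 1 or 3, up to 0.0654). Of 25 further effector genes, edgeR called none in TyrRS-WT or TyrRS-E196K against control. DESeq2 called 3 and 4 there, beside 5.94% and 13.5% of the genes it tested. By edgeR 1 was called higher in TyrRS-WT∆NLS (beside 2.39% of all genes), and 1 higher and 1 lower in TyrRS-E196K∆NLS (beside 2.63% and 2.16%). The gene higher in both ∆NLS genotypes was CG18107, a bomanin by current annotation, at 7.43 to 9.75 CPM in control, 19.9 to 21.2 CPM in TyrRS-WT∆NLS (1.26 ± 0.15, adjusted p = 4.02e-05) and 23.2 to 27.0 CPM in TyrRS-E196K∆NLS (1.54 ± 0.14, adjusted p = 1.13e-06).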

How the data were processed

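The authors trimmed paired-end reads of unstranded poly(A) libraries with Trimmomatic 0.32, aligned them with TopHat2 2.0.12 and counted reads per gene with HTSeq 0.6.1. The deposited values are these raw counts, and 3 libraries that the study treated as outliers were not analysed here. Lines that name no gene were left out. Reads overlapping no gene were 2.57 to 3.8% and ambiguous reads 4.87 to 6.32% of a library. Groups came from the labels. The study calls its measurements independent and extracted RNA from brains in quadruplicate, without saying whether the replicates came from separate crosses, so p-values measure the spread between these libraries, which may be partly technical. The study sequenced in 2 batches and had batch in its model, but the batch of each library is not given in the sources used here, so no within-batch values or batch term could be given. One TyrRS-WT∆NLS column did not carry the number in its label and was used as an unnumbered library of that genotype.

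All 17 libraries and 16163 genes entered 1 edgeR 4.0.16 quasi-likelihood fit (TMM, robust dispersion, R 4.3.3) with a coefficient per genotype. The interaction was (TyrRS-E196K minus TyrRS-E196K∆NLS) minus (TyrRS-WT minus TyrRS-WT∆NLS). The fit was tested on simulated data beforehand. Each SE was derived from the fitted log2 fold change and its F statistic, as their quotient after taking the root of F. Alternatives were genes kept by filterByExpr, DESeq2 size factors, the DESeq2 1.42.0 Wald test, the compared libraries alone, a replicate block, 1 surrogate variable (sva 3.50.0) and each library left out. Members and gene lists were chosen with earlier results of these data known. A member was named at a mean of at least 1 CPM or an adjusted p under 0.05 in 1 of the 9 comparisons. Listed genes were named only when called at a mean of at least 1 CPM, at most 4 per list and comparison. Positions, exon lengths and distances are from a later Ensembl annotation of the assembly the authors aligned to (BDGP6). No sequence was used here.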

Additional observations from a re-analysis of the deposited data

Results flagged for a closer look

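In TyrRS-E196K∆NLS, library 4 stood apart from its 3 fellows, relative to their range, for 6 of the members with a mean of at least 1 CPM: CecA1 at 33.2 CPM (others 0.205 to 4.94), Dro at 75.8 CPM (others 0.937 to 12.5), Drs at 58.9 CPM (others 6.04 to 9.92), PGRP-SC2 at 5.14 CPM (others 0.15 to 0.462), TotM at 134 CPM (others 4.46 to 6.36) and imd at 17.4 CPM (others 16.2 to 16.3), the last a small difference beside a range of 14.8 to 19.4 CPM over all libraries. Dixon's test was made in 96 groups of 4 values and flags about 1 in 20 by chance, and these 6 come from 1 library.

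The difference between the genotypes with and without the localization signal was not the same for TyrRS-E196K as for TyrRS-WT in Rel, with an interaction of 1.56 on the log2 scale, and in Tep4, with an interaction of -1.29, by the edgeR test of the interaction. The mutant genotypes differ in copy number (1 and 3) and the wild-type genotypes do not (2 and 2), so signal and copy number cannot be told apart in it.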

How the results depend on the processing

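No called member changed direction under any alternative. Counts of called members (6, 6, 6 and 2 in TyrRS-WT, TyrRS-E196K, TyrRS-WT∆NLS and TyrRS-E196K∆NLS against control, 2 in each other comparison) became 23, 20, 11 and 8 against control and 7 for TyrRS-E196K against TyrRS-E196K∆NLS by DESeq2. Counts over all genes went from 371, 1027, 620 and 774 to 754, 1627, 1113 and 1119 against control. For TyrRS-E196K against TyrRS-E196K∆NLS they went from 905 to 1461. With only the compared libraries, members called were 10 for TyrRS-E196K and 10 for TyrRS-WT∆NLS against control (beside 664 and 419 of all genes). They were 1 each for TyrRS-WT and TyrRS-E196K∆NLS against TyrRS-WT∆NLS (beside 144 and 281), as with 1 surrogate variable (beside 158 and 182). The cause was not tested.

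Leaving out 1 library gave 2 to 8 calls for TyrRS-WT against control. There were 2 without control 3 or TyrRS-WT 2 and 3 without control 1, beside 203, 203 and 207 of all genes. Leaving out 1 library gave 3 to 10 for TyrRS-E196K against control (3 without control 3, beside 440 of all genes, and 10 without control 2, beside 1030). It gave 4 to 7 for TyrRS-WT∆NLS and 2 to 3 for TyrRS-E196K∆NLS against control. It gave 2 to 3 for TyrRS-E196K against TyrRS-WT, 1 to 3 against TyrRS-E196K∆NLS (1 without library 2 of either), 0 to 2 for TyrRS-WT against TyrRS-WT∆NLS (0 without TyrRS-WT∆NLS 1 or 2, 1 without any TyrRS-WT library), 1 to 3 for TyrRS-E196K∆NLS against TyrRS-WT∆NLS (1 without control 3, any TyrRS-WT∆NLS library, or TyrRS-E196K∆NLS 1, 2 or 3) and 1 to 3 for the interaction (1 without TyrRS-WT 1, TyrRS-WT∆NLS 1 or 2, TyrRS-E196K 3 or TyrRS-E196K∆NLS 2).

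Replicate numbers did not pair the libraries (mean correlation of same-numbered libraries -0.0107 over 27 pairs, from -0.556 to 0.491, and 0.00382 over 74 other pairs). With the replicate block, 4 members were called for TyrRS-E196K against TyrRS-E196K∆NLS and 1 for TyrRS-E196K∆NLS against TyrRS-WT∆NLS, beside 865 and 92 of all genes. Depth limits the members under 1 CPM, among them Tep5. The count of members above every control library, an alternative chosen after seeing the data, was 25 to 41 in TyrRS-WT (41 without TyrRS-WT 3), 4 to 18 in TyrRS-E196K∆NLS (18 without control 2), 28 to 36 in TyrRS-E196K, and 30 to 39 for the wild-type protein without its localization signal, each with 1 library left out. The shares of all genes were 11.0 to 13.1%, 9.01 to 13.0%, 10.3 to 14.2% and 13.3 to 16.7% in the same order.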
